A study of Mus musculus with 6 samples.

Results

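The genes described here encode molecular chaperones and chaperonins: the subunits of the cytosolic chaperonin TRiC (Tcp1 and the Cct genes), the mitochondrial chaperonin Hspd1 and Hspe1, the HSP70 and HSP110 families, HSP90, the small heat shock proteins and the DNAJ proteins. The rule that chose them used gene symbols alone, but it was set with earlier results of these data known. Of 18193 genes with a probe set of a single symbol, 79 met the rule: 9 of TRiC, 2 of the mitochondrial chaperonin, 14 of the HSP70 and HSP110 families, 2 of HSP90, 8 small heat shock proteins, 4 DNAJA, 13 DNAJB and 27 DNAJC genes. RNA came from blood-forming cells of wild-type C57BL/6 mice, sorted into 2 populations with 3 arrays each. LSK cells had low lineage marker staining and carried both Sca1 and Kit, a gate that holds stem and multipotent cells. LK cells had low lineage marker staining and Kit without Sca1, a gate that holds committed progenitors. The age of the mice and the number behind each sample are not given in the sources used here, so a p-value covers only how far these arrays scatter, which may in part be technical. Linear amplification and biotin labelling preceded hybridisation to Affymetrix arrays.

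Chaperones help other proteins reach and keep their folded form. HSP70 proteins bind and release unfolded stretches in a cycle driven by ATP, DNAJ proteins bring them substrates and speed that cycle, and HSP110 proteins exchange the nucleotide. Chaperonins are barrels that enclose a protein while it folds, TRiC in the cytosol (actin and tubulin are its best known clients) and Hspd1 with its lid Hspe1 in mitochondria. Hspa5 and Hsp90b1 are the HSP70 and HSP90 of the endoplasmic reticulum (ER).

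The populations matched their gates by markers. All 6 measured stem and multipotent markers were higher in LSK, 4 of 5 erythroid markers and 4 of 4 granulocyte and monocyte progenitor markers were lower, and the B cell, T and NK cell and stroma markers showed no difference past the threshold. Mean log2 levels of the mature neutrophil markers ranged from 10.15 to 11.11 in LSK and from 9.52 to 10.75 in LK. All 5 had a difference above 0, and a fit with replicate as a block called 3 higher in LSK (Camp, Ltf and Ngp). Those of the macrophage markers were at most 3.01 on any array, with C1qb as the 1 of 4 past the threshold. The replicate 2 arrays of both populations stood apart on the second principal component (-31.72 and -41.17, against 7.25 to 29.82 for the others). The difference between 3' and 5' control probe sets, a measure of RNA integrity and amplification, was 2.32, 2.32 and 3.30 (log2) in LSK and 3.26, 3.94 and 3.40 in LK. It thus moved with the population. With it in the fit, every member and partner gene called below lost its call. In bulk RNA, fewer cells of a type and less RNA per cell cannot be told apart.

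The chaperone genes that passed the test were lower in LSK than in LK. By limma with an adjusted p under 0.05, 8 of the 79 were lower (10.1%) and 0 were higher, against 2.89% lower and 3.84% higher of all genes tested. The 8 were Hspd1, Hspe1, Cct6a, Hspa4, Hspa13, Hspa14, Hsp90b1 and Dnajc2. At an unadjusted p under 0.05, 22 were lower and 3 higher, against 11.9% lower and 10.5% higher of all genes. The 3 arrays of LSK lay wholly below those of LK for 25 members (31.6%, against 14.8% of all genes) and wholly above for 3 (3.8%, against 13.2%). The median log2 difference, LSK minus LK, was -0.17 over the members and -0.02 over all genes. Among genes with a mean log2 level of 4 or more in a population it was -0.41 and -0.09. At that level the shares of all genes were higher too. By limma 14.8% of members were lower and 0% higher, against 6.51% and 8.26% of all genes. Arrays lay wholly below for 44.4% and wholly above for 1.85%, against 23.9% and 19.6%. Of the 79, 25 had mean log2 levels under 4 in both populations, near the lower end of the range, where differences are compressed. Arrays of the same replicate number deviated together, so the fit was repeated with that number as a block. It called 18 members lower (22.8%, against 7.36% of all genes) and 1 higher (1.27%, against 7.02%). At a log2 level of 4 or more it called 33.3% lower and 1.85% higher, against 16.1% and 14.7% of all genes.

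**Figure D1:**
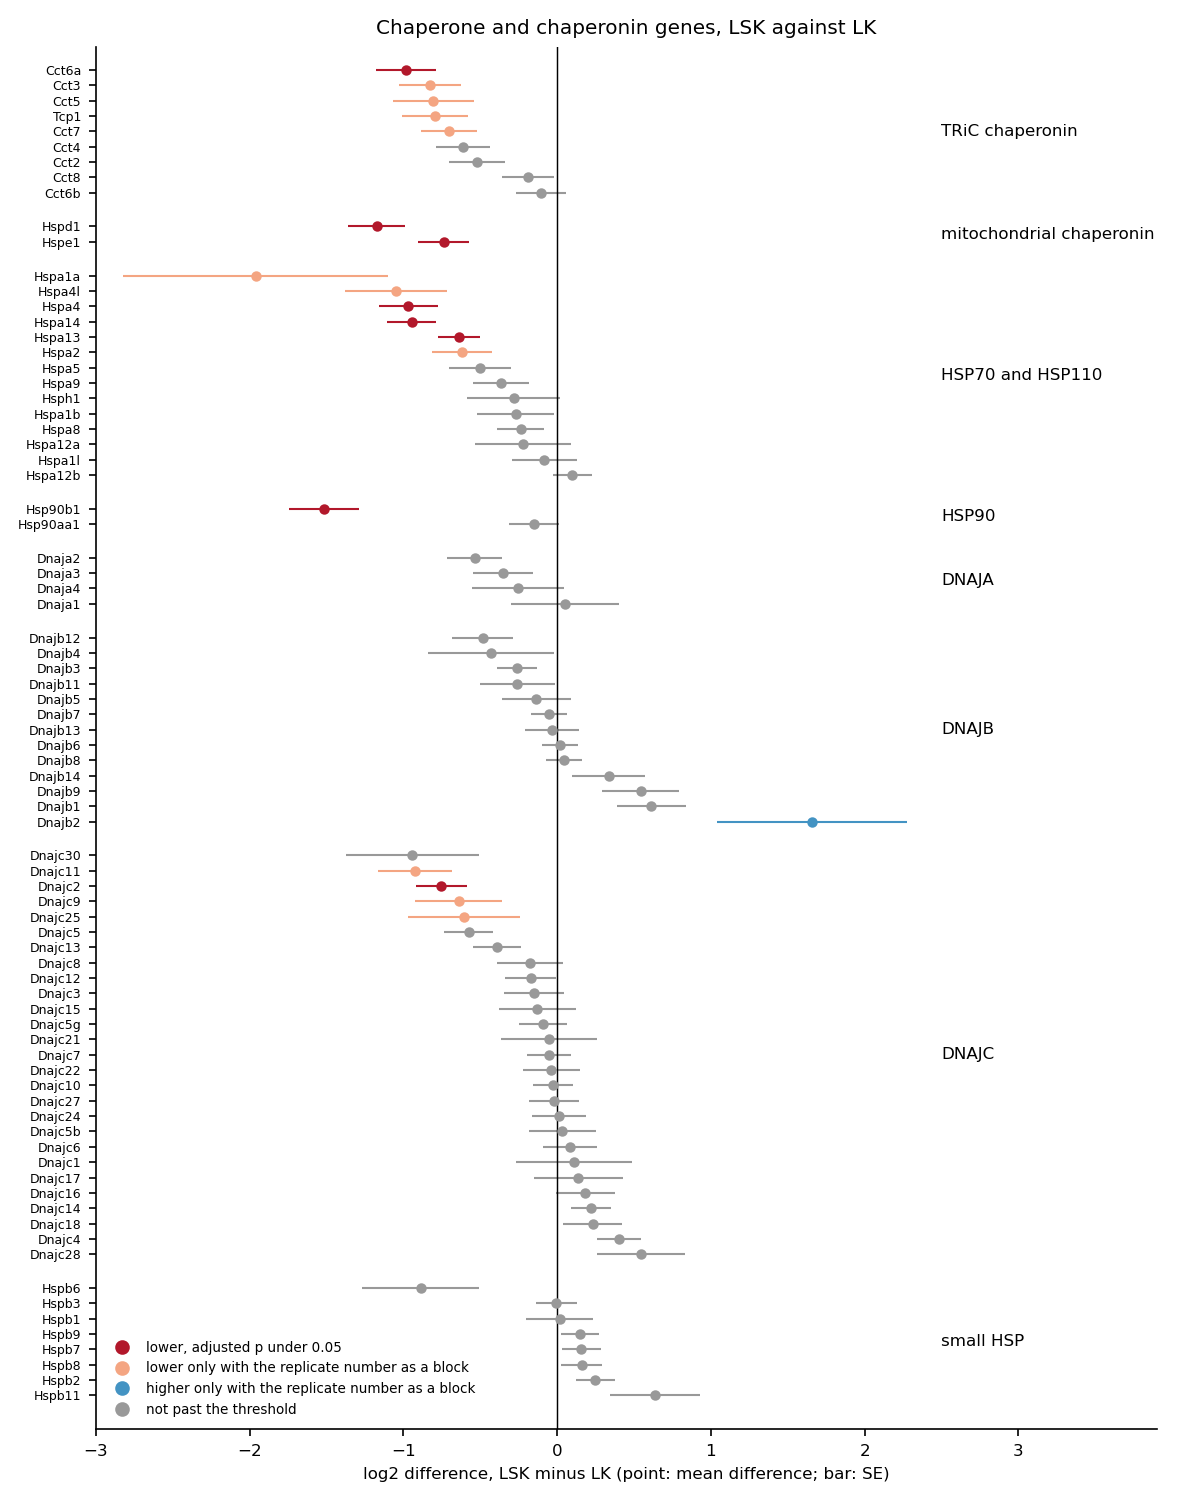
Log2 difference, LSK minus LK, of all 79 chaperone and chaperonin genes (horizontal axis) by family, with the SE of the limma fit as a bar. The 8 genes past the threshold are all below 0, and 55 of the 79 points lie below 0 (69.6%, against 53.4% of all genes).

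These counts rest on few arrays, and the counts over all genes moved with them. With both replicate 2 arrays left out, 2 members were lower, Hsp90b1 and Dnajc11, as were 0.912% of all genes. With the 3' to 5' measure added to the fit, 0 members passed (9 at an unadjusted p under 0.05), where 25 genes of all those tested were higher and 0 lower. The log2 differences of the 8 then ran from -1.30 to -0.50, with limma adjusted p from 0.316 to 0.572. No member passed without LSK replicate 1 (0.434% of all genes lower) or without LK replicate 3 (0.418%). Leaving out LSK replicate 2 gave 1 member (1.12%), and leaving out LSK replicate 3 gave 11 (3.77%). The count was 2 (1.53%) when LK replicate 1 was dropped and 3 (1.71%) when LK replicate 2 was. The sign of each of the 8 differences was kept in all of these fits.

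The mitochondrial chaperonin was lower in LSK in both of its genes. Hspd1, the barrel subunit, had log2 levels of 8.73, 8.69 and 9.03 in LSK and 10.28, 9.75 and 9.93 in LK. The arrays did not overlap, and LSK was 2.26-fold lower (log2 difference -1.17, SE 0.18, limma adjusted p 0.0172). Hspe1, the lid, had log2 levels of 11.03, 10.72 and 11.01 in LSK and 11.88, 11.48 and 11.61 in LK. Again no LSK array reached an LK array, with a log2 difference of -0.74 (SE 0.16, limma adjusted p 0.0482). The probe set of Hspe1 is one shared by several transcripts, and its other probe set differed by -0.39, not past the threshold. The Hspe1 call was lost in 10 of the alternatives, among them the mean of its probe sets (limma adjusted p 0.0896). That of Hspd1 was lost in 5.

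Hspd1 and Hspe1 lie head to head on chromosome 1, on opposite strands, with annotated starts 216 bases apart (a second annotated start of Hspd1 lies 95 bases from that of Hspe1). The stretch before the start of Hspe1 is shown because it also lies before the Hspd1 start 216 bases away, and both genes were lower. From the other Hspd1 start no match was found. It holds heat shock element letters: GAA, any 2 bases, TTC, any 2 bases, GAA, or the same on the other strand. It is chr1:55088053-55088082 of GRCm38.p6, RefSeq, plus strand, 66 to 95 bases before the start of Hspe1, and capitals mark 2 overlapping matches.
Hspe1: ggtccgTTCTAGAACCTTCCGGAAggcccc
In the 250 bases before a start, these letters stood in 3 of the 65 members with a promoter in the table (4.62%), Hspd1, Hspe1 and Dnajb6, and in 0.514% of the 27025 genes there. Hspd1 and Hspe1 are both counted for this same stretch. Dnajb6, which has the letters too, had a log2 difference of 0.02 (limma adjusted p 0.946). The sign of that value turned under several alternatives. A match is a description of the letters and not of binding.

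All 9 TRiC genes had a log2 difference below 0, as did 53.4% of all genes, and the TRiC median was -0.70. By limma 1 passed, Cct6a (11.1%, against 2.89% of all genes lower). With the replicate block 5 did (Cct6a, Cct3, Cct5, Cct7 and Tcp1), which is 55.6%, against 7.36%. Of all genes with a mean log2 level of 4 or more in a population, 6.51% were lower by limma and 16.1% with the block. Cct6a had log2 levels of 9.84, 9.60 and 10.25 in LSK and 11.04, 10.76 and 10.82 in LK. The arrays did not overlap, and the difference was -0.98 (SE 0.20, limma adjusted p 0.0358). Its other probe set differed the same way, by -0.52, and the call was lost in 7 of the alternatives. The remaining subunits were not past the threshold in the main fit. Among the alternatives, the block included, Cct3, Cct7 and Tcp1 each passed in 5, Cct4 in 2 and Cct5 in 1. Cct3 differed by -0.82 (limma adjusted p 0.0603, 0.0373 with the block) and Tcp1, the first named subunit, by -0.79 (0.0765 and 0.0382). Cct5 differed by -0.80 (0.129 and 0.0413) and Cct7 by -0.70 (0.0686 and 0.0259). These 4 showed no overlap between populations. Cct4 (-0.61) and Cct2 (-0.52) also showed none, but passed neither in the main fit nor with the block. Of the 6 other probe sets of Cct4, 4 were lower and 1 higher (0.75) at an unadjusted p under 0.05. Of the 4 lower ones, 2 lay near the lower end of the range (log2 means of 3.09 and 2.48 in LSK). The chosen probe sets of Cct4 and Cct2 carry a suffix that marks possible cross-hybridisation. Cct8 differed by -0.19, with overlap. Cct6b, a subunit known from testis, lay near the lower end of the range (log2 means of 2.53 and 2.64), and its sign turned with array weights and with the covariate.

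**Figure D2:**
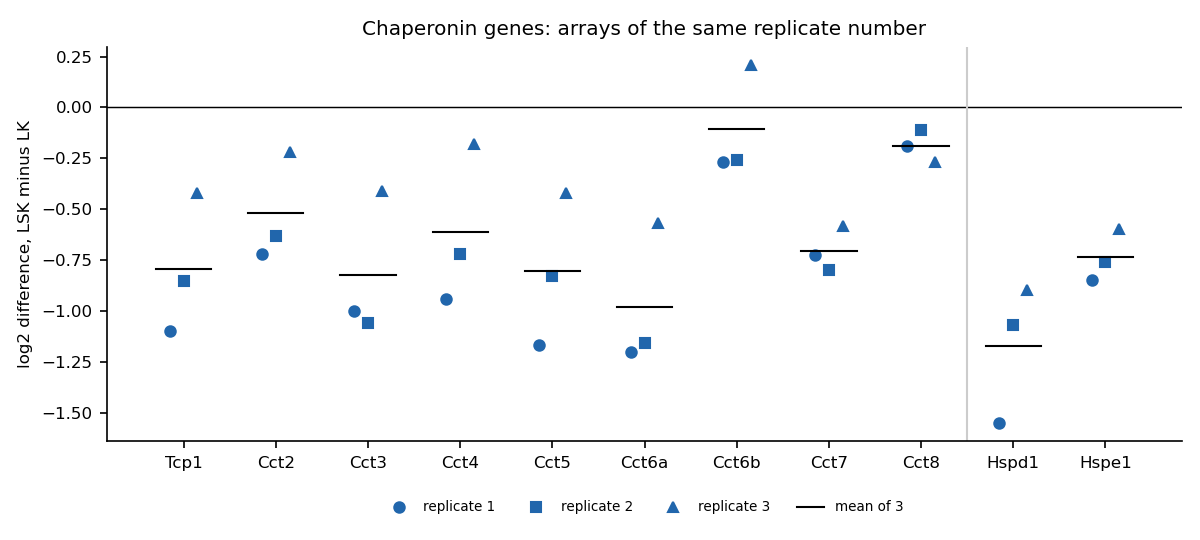
Log2 difference, LSK minus LK, between arrays of the same replicate number for the TRiC genes (left of the grey line) and the mitochondrial chaperonin (right), with the mean of the 3 as a bar. The median TRiC difference was -0.95, -0.80 and -0.41 in replicates 1, 2 and 3, and Cct6b in replicate 3 is the point above 0.

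Of the 14 HSP70 and HSP110 genes 13 had a difference below 0 (92.9%, against 53.4% of all genes), with a median of -0.43. By limma 3 were lower, Hspa4, Hspa13 and Hspa14. That is 21.4%, against 2.89% of all genes and 6.51% of those with a mean log2 level of 4 or more. Hspa4, an HSP110 protein, had log2 levels of 9.03, 8.96 and 9.59 in LSK and 10.13, 10.18 and 10.17 in LK. The difference of -0.97 (SE 0.19, limma adjusted p 0.0352) belongs to 1 of its 4 probe sets. The other 3 differed by 0.65, 0.31 and 0.12, none past an unadjusted p of 0.05, and the mean over all 4 gave 0.03. Hspa14, an HSP70 protein bound to ribosomes, had log2 levels of 7.56, 7.52 and 7.98 in LSK and 8.62, 8.61 and 8.68 in LK. Its populations did not overlap, with a difference of -0.95 (SE 0.16, limma adjusted p 0.0221). Its other probe sets differed by -0.62 and 0.42, the mean over all 3 gave -0.38 (limma adjusted p 0.379), and the call was lost in 8 of the alternatives. Hspa13, an HSP70 of the microsomal fraction, had log2 levels of 7.75, 7.84 and 7.90 in LSK and 8.28, 8.55 and 8.57 in LK. No array overlapped there either (difference -0.64, SE 0.14, limma adjusted p 0.0448), but the call was lost in 12 of the alternatives.

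With the block, Hspa4l (-1.05, limma adjusted p 0.0281), Hspa2 (-0.62, 0.0465) and Hspa1a (-1.96, 0.0481) were lower as well, where without it their adjusted p was 0.122, 0.121 and 0.243. The constitutive HSP70 Hspa8 had log2 levels of 12.18, 12.43 and 12.42 in LSK and 12.47, 12.80 and 12.47 in LK. Its populations did not overlap, yet the difference of -0.24 was not past the threshold (limma adjusted p 0.441). Its probe set has a suffix that marks possible cross-hybridisation. The mitochondrial HSP70 Hspa9 differed by -0.36 (limma adjusted p 0.308), and 2 of its 4 other probe sets were lower at an unadjusted p under 0.05.

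None of the 4 genes best known as induced by heat and other stress passed the test. Hspa1a had log2 levels of 4.91, 4.32 and 7.70 in LSK and 7.02, 7.50 and 8.30 in LK. LSK replicate 3 lay within the range of LK and the other LSK arrays below it; without that array the difference was -2.99 (limma adjusted p 0.0179). Hspa1b had log2 levels of 11.22, 11.81 and 12.04 in LSK and 11.65, 12.15 and 12.06 in LK, which overlap (difference -0.27, limma adjusted p 0.603). Hspa1a and Hspa1b are near-identical copies on chromosome 17, with starts 12918 bases apart, so how signal divides between their probe sets is uncertain. Hsph1, an HSP110 protein, had log2 levels of 11.71, 11.68 and 10.87 in LSK and 12.03, 11.82 and 11.25 in LK. These overlap, and the replicate 3 arrays were the lowest of both populations (difference -0.28, limma adjusted p 0.653). Dnajb1, the DNAJ partner of the inducible HSP70, had a difference of the opposite sign, with 10.28, 9.81 and 10.47 in LSK and 9.87, 9.31 and 9.53 in LK. Its populations overlap and the difference of 0.61 was not past the threshold (limma adjusted p 0.173). Beside these, the 9 immediate early genes, which respond to cell handling among other stimuli, all had differences above 0. By limma 2 were higher (22.2%, against 3.84% of all genes), and with the block 7 (77.8%, against 7.02%). The mean log2 level of the 9 was 8.90, 7.73 and 9.14 in LSK and 7.59, 6.63 and 7.60 in LK. The part of handling in the stress genes was not tested. With the 3' to 5' covariate the differences of Hspa1a and Hspa1b became 0.06 and 0.22.

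**Figure D3:**
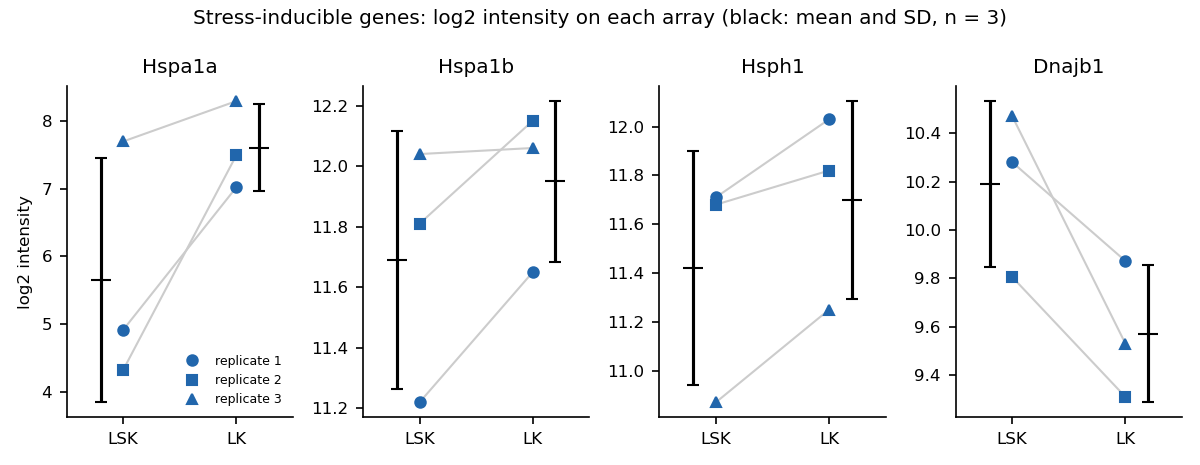
Log2 intensity of 4 stress-inducible genes on each array, by population, with symbols for the replicate number, grey lines joining the same number and mean and SD (n = 3) in black; each panel has its own axis. LSK replicate 3 stands at 7.70 for Hspa1a, where the other LSK arrays are at 4.91 and 4.32.

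Hsp90b1, the HSP90 of the ER lumen, had the largest difference of the 8. Its log2 levels were 7.03, 6.99 and 6.87 in LSK and 8.12, 8.97 and 8.36 in LK. LSK was 2.86-fold lower, without overlap (log2 difference -1.52, SE 0.23, limma adjusted p 0.0152). The call was lost with the 3' to 5' covariate (-1.30, adjusted p 0.321), without LSK replicate 1 (0.0656) and without LK replicate 3 (0.0619). Its other probe set differed by -0.81, not past the threshold. The cytosolic Hsp90aa1 differed by -0.15 (limma adjusted p 0.658), with overlap, and 2 of its 4 other probe sets were lower at an unadjusted p under 0.05. Hspa5, the HSP70 of the ER, had log2 levels of 10.60, 10.65 and 11.09 in LSK and 10.97, 11.46 and 11.41 in LK. The populations overlap, and the difference of -0.50 was not past the threshold (limma adjusted p 0.211).

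**Figure D4:**
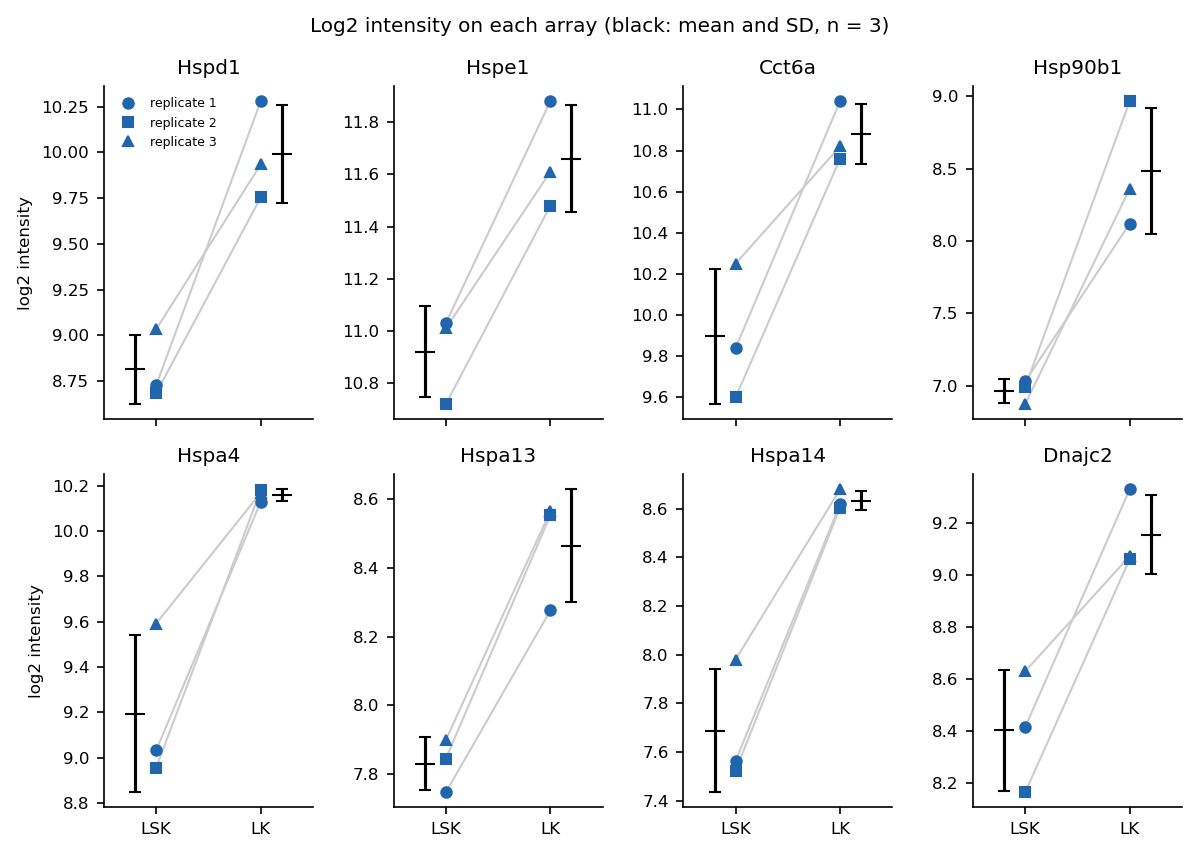
Log2 intensity on each array of the 8 genes past the threshold, by population, with symbols for the replicate number, grey lines joining the same number and mean and SD (n = 3) in black; each panel has its own axis. In every panel the 3 LSK arrays lie below the 3 LK arrays.

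Other genes of ER folding and its stress response were measured as a list of 25. Of these 4 were lower in LSK by limma (16%, against 2.89% of all genes) and 0 higher. The block called 6 lower (24%, against 7.36%). Of all genes with a mean log2 level of 4 or more in a population, 6.51% were lower by limma and 16.1% with the block. In 21 of the 25 the difference was below 0 (84%, against 53.4%), and their list median was -0.48. Pdia6, a protein disulfide isomerase, differed by -1.75 (limma adjusted p 0.00665). Edem1, which marks misfolded glycoproteins for removal, differed by -2.23 (0.0161), and Hyou1, an ER HSP110 protein, by -1.30 (0.0169). Creld2 differed by -1.24 (limma adjusted p 0.0175). All 4 calls were lost with the 3' to 5' covariate (limma adjusted p 0.185 to 0.349), and those of Edem1, Hyou1 and Creld2 without LK replicate 3. Hyou1 differed by -0.65 with the mean of its probe sets (limma adjusted p 0.0524). The block added Ero1a, an oxidase for disulfide bonds (-1.04, limma adjusted p 0.0784 without and 0.0254 with it), and Xbp1, a transcription factor of the unfolded protein response (-1.43, 0.0725 and 0.00712). Of the DNAJ proteins of the ER among the members, Dnajb9 differed by 0.54 and Dnajb11 by -0.26, neither past the threshold. The result for Dnajc3, which inhibits the stress kinase of the ER, depended on the probe set. The brightest, which stands for the gene in the counts, differed by -0.15 (limma adjusted p 0.718). Of the other 4, 3 differed by -1.08, -1.17 and -0.77 (limma p adjusted over all single-symbol probe sets 0.0393, 0.00793 and 0.0620) and 1 by 0.31. The mean over all 5 gave -0.58 (limma adjusted p 0.0613).

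The letters of the ER stress element, CCAAT, any 9 bases, CCACG, were searched on either strand. The stretches that hold them are shown, with the letters in capitals, for the 3 members with a match, Hsp90b1, Hspa5 and Dnajc3, and for the 2 genes of the ER list that hold them and passed, Pdia6 and Creld2. All are from RefSeq, GRCm38.p6, on the strand of the gene: chr10:86705513-86705676 (minus), chr2:34772005-34772063 (plus), chr14:118937807-118937865 (plus), chr12:17266471-17266529 (plus) and chr15:88819500-88819558 (plus).
Hsp90b1: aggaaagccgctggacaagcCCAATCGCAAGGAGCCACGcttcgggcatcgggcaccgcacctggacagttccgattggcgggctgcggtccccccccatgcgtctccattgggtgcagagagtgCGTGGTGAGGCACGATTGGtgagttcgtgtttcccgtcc
Hspa5: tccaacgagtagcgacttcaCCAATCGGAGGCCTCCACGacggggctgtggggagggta
Dnajc3: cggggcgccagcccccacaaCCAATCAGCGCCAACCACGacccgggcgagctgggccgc
Pdia6: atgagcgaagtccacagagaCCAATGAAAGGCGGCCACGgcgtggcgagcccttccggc
Creld2: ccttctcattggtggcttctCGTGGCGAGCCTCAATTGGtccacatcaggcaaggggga
These letters stood in 3 of the 65 members with a promoter (4.62%), Hsp90b1 with 2 matches, Hspa5 and Dnajc3, in 5 of 21 genes of the ER list (23.8%) and in 0.13% of all genes in the table. The members that hold them differed by -1.52, -0.50 and, in its brightest probe set, -0.15, and 1 of the 3 passed. The other genes of the ER list with the letters, Ero1b (-0.93, limma adjusted p 0.113), Calr (-0.48, 0.132) and Canx (-0.41, 0.0910), did not pass. The related element ATTGG, any base, CCACG was in 0 of the 65 members (0.037% of all genes), and TGACGTGG was in 1, Dnajc25 (1.54%, against 0.603% of all). The absence of a match says only that these letters are not in this window.

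**Figure D5:**
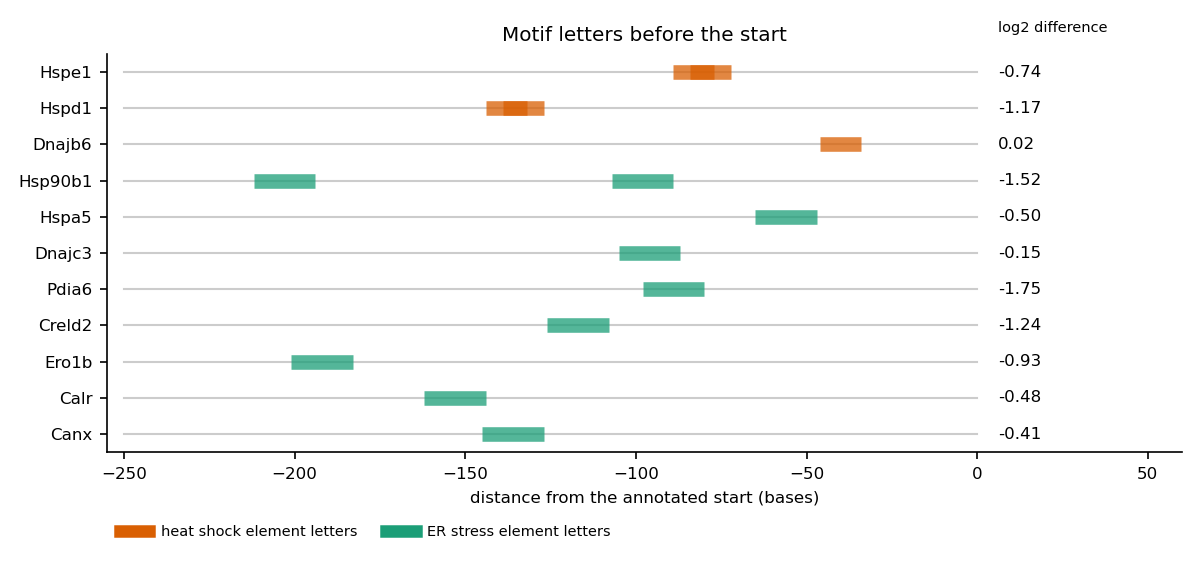
Position of heat shock element letters (orange) and ER stress element letters (green) in the 250 bases before the annotated start, with the log2 difference, LSK minus LK, at the right; an element counted from several starts of a gene is drawn once, from the nearest. Hsp90b1 has 2 matches, and the differences run from -1.75 for Pdia6 to 0.02 for Dnajb6.

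The DNAJ families had median log2 differences of -0.30 for DNAJA, -0.04 for DNAJB and -0.05 for DNAJC. Of the 44 genes 1 was lower by limma (3.7% of DNAJC and 0% of DNAJA and DNAJB, against 2.89% of all genes). It was Dnajc2, which works on ribosomes with Hspa14. Its log2 levels were 8.42, 8.16 and 8.63 in LSK and 9.33, 9.06 and 9.07 in LK. The populations did not overlap (difference -0.75, SE 0.17, limma adjusted p 0.0476), and 2 of its 3 other probe sets differed the same way at an unadjusted p under 0.05. Its probe set, like that of Hspe1, is one shared by several transcripts. The call was lost in 9 of the alternatives, among them the mean of its probe sets (limma adjusted p 0.0747) and another choice of probe set (0.145). With the block Dnajc9, a histone chaperone (-0.64, limma adjusted p 0.0393), Dnajc11 (-0.92, 0.0346) and Dnajc25 (-0.60, 0.0350) were lower too. Without it their adjusted p was 0.243, 0.0736 and 0.402. The block called 14.8% of DNAJC and 0% of DNAJA and DNAJB lower, against 7.36% of all genes. Of all genes with a mean log2 level of 4 or more in a population it called 16.1% lower, while 9 of the 27 DNAJC genes lay under that level in both. The level of Dnajc11 was low, with log2 means of 3.42 in LSK and 4.34 in LK. Dnajc5 (-0.58, limma adjusted p 0.0819) and Dnaja2 (-0.53, 0.137) did not overlap between populations and did not pass. Dnajc30 differed by -0.94 and Dnajc13 by -0.39, and neither passed. Dnaja3, a mitochondrial DNAJ protein, differed by -0.35.

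Dnajb2 was the 1 member that the block called higher. Its log2 levels were 5.99, 5.47 and 3.75 in LSK and 4.20, 3.04 and 2.99 in LK, so LSK replicate 3 lay inside the range of LK (difference 1.66, limma adjusted p 0.174, 0.0277 with the block). Without that array the difference was 2.32 (limma adjusted p 0.0338), and with the 3' to 5' covariate it was 0.06 (0.998). The small heat shock proteins gave no call in either fit. Of the 8, 6 lay near the lower end of the range in both populations. The largest differences were those of Hspb6 (-0.89, limma adjusted p 0.233) and Hspb11 (0.64, 0.266), both with overlap.

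The partners of these chaperones were measured as further lists. With the 3' to 5' covariate no gene of these lists passed. Of 19 HSP90 co-chaperones 1 was lower (5.26%, against 2.89% of all genes), Ahsa1, which activates the HSP90 ATPase (-1.33, limma adjusted p 0.0141). Its call was also lost without LK replicate 3 (limma adjusted p 0.0642). The block added Ruvbl2 (-0.96, limma adjusted p 0.0129) and Rpap3 (-1.03, 0.0244), which made 15.8% lower, against 7.36% of all genes. Of all genes with a mean log2 level of 4 or more in a population, 6.51% were lower by limma and 16.1% with the block. Only 1 of the 19 co-chaperones lay under that level in both populations, so neither share of this list stood above those of genes at like levels. Of 14 genes of mitochondrial folding and proteolysis 2 were lower (14.3%, against 2.89% of all genes). These were Htra2, a protease (-1.63, limma adjusted p 0.0120), and Phb2, a prohibitin (-0.84, 0.0169). The Phb2 call was lost in 7 of the alternatives, among them the mean of its probe sets (limma adjusted p 0.0656). That of Htra2 was lost in 4, among them without LK replicate 3 (0.0553). The median of the mitochondrial list was -0.52. The block added Grpel1, the exchange factor of Hspa9 (-0.65, limma adjusted p 0.0449), and Afg3l2 (-1.14, 0.0262), and called Hscb higher (1.25, 0.0489). With it 28.6% of the list was lower and 7.14% higher, against 7.36% and 7.02% of all genes. Of 13 HSP70 exchange factors and adaptors 0 passed by limma (3 lower and 0 higher at an unadjusted p under 0.05, where the shares of all genes were 11.9% and 10.5%). Bag1 was the largest (-0.96, limma adjusted p 0.0627, 0.0219 with the block). Of 15 prefoldin, phosducin-like and tubulin cofactor genes, which act beside or after TRiC, 0 passed by limma (3 lower and 1 higher at an unadjusted p under 0.05). Pfdn4 differed by -1.26 (limma adjusted p 0.167), while the block called Pfdn5 higher (1.03, 0.0389) and Txndc9 lower (-0.80, 0.0364). The heat shock factor list held 6 genes, of which 2 (Hsf1 and Hsf3) are not analysed here and 3 (Hsf2, Hsf4 and Hsf5) lay near the lower end of the range. By limma 0 of the 4 passed in either fit (0 at an unadjusted p under 0.05). The largest difference was that of Hsbp1, a heat shock factor binding protein (0.47, limma adjusted p 0.399). No Hsf gene was thus measured above the lower end, so these counts say nothing of the heat shock factors themselves.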

How the data were processed

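RNA of 3 LSK and 3 LK samples was measured on arrays. The authors deposited linear intensities per probe set, which per the submitters' processing notes came from RMA (affy package, R 2.11.0). Since RMA makes the distributions of the arrays alike, a change common to all genes is lost. No genome build is given in the sources used here.

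Of 45101 probe sets, 34945 carried exactly 1 symbol and 64 were controls. For each gene the probe set of highest mean over the 6 arrays was kept. The test of LSK against LK on log2 values used lmFit and eBayes of limma 3.58.1 under R 4.3.3 (two-sided, Benjamini-Hochberg over all 18193 genes, threshold 0.05), tested on simulated data. No pair of arrays was identical (0 pairs). The number of arrays limits the precision.

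The members and lists were chosen with earlier results of these data known. Named genes are all members past the threshold, the largest difference and the highest level in each family, the stress-inducible and ER genes, and up to 3 genes of each partner list. Others (among them the TRiC genes, those called only with the block, Xbp1, Dnajc5 and the ER DNAJ genes) were named after their values were seen.

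The labels do not say what the shared replicate numbers mean. Deviations from the population means correlated across genes by 0.42, 0.43 and 0.27 between arrays of the same number and by at most 0.04 otherwise, so the numbers were taken as pairing the samples. Deviations within a population sum to 0, so part of this contrast is built in. Promoters were searched in a RefSeq table of GRCm38.p6, which held 65 of the 79 members, with 4 motifs. Alternatives were the replicate block, 2 normalisations, a filter on dim probe sets, other probe set choices, other variance models, array weights, the 3' to 5' covariate and leaving out arrays.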

Additional observations from a re-analysis of the deposited data

How the results depend on the processing

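With the replicate block, the count of members lower in LSK rose from 8 to 18, that of members higher from 0 to 1 and that of partner genes lower from 7 to 15; array weights gave 14, 1 and 25. The mean of all probe sets gave 3 members lower, the 3' to 5' covariate 0 (and 0 partner genes), and leaving out both replicate 2 arrays 2. The filter on dim probe sets gave 13 partner genes and the trended robust variance 14. The share of all genes lower in LSK moved too: 2.89% in the main fit, 7.36% with the block and 7.15% with array weights. It was 2.1% with the mean of all probe sets, 0% with the covariate and 0.912% without the replicate 2 arrays. With the filter it was 12.5% and with the trended variance 3.92%. The share higher was 3.84% in the main fit, 7.02% with the block and 7.17% with array weights. Leaving out 1 array at a time gave 0 to 11 members lower, 0 to 1 higher and 2 to 11 partner genes lower. The median difference of the members stayed below 0 in all settings run, and was -0.46 with the filter on dim probe sets (-0.11 over all genes). The signs that turned were those of Dnaja2 (0.0942) and Afg3l2 (0.177) with other probe set suffixes, Dnaja3 (0.0549), Hspa4 (0.0294) and Dnajb6 (-0.00841) with the mean of all probe sets, Cct6b (0.0608) and Dnajb6 (-0.0202) with array weights, and Hsp90aa1 (0.0281), Hspa1a (0.0641), Hspa1b (0.221), Cct6b (0.0152), Hsbp1 (-0.00188) and Dnajb6 (-0.00183) with the covariate. Dnajb6 was -0.00984 without both replicate 2 arrays and ran from -0.0111 to 0.0420 with 1 array left out, and Dnajb11 from -0.433 to 0.00550. The cause was not tested. Low signal limits what can be said of the 25 members near the lower end of the range.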

Other observations

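In 5 members a second probe set had the opposite sign with an unadjusted p below 0.05: Dnajb5, Dnajb6, Dnajc1, Dnajc14 and Cct4. None of these was past the threshold by limma. In 2 members that did not pass, Dnajc3 and Hspa9, a second probe set was lower at a p adjusted over all single-symbol probe sets under 0.05, that of Hspa9 near the lower end of the range (-0.72). Of the 8 members past the threshold by limma, 7 had another probe set. At an unadjusted p under 0.05 another probe set had the same sign for 2 (Cct6a and Dnajc2) and the opposite sign for 0. Adjusted over all single-symbol probe sets, the limma p of those of Cct6a and Dnajc2 was 0.0930 to 0.158.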
